A study of Mus musculus with 7 samples.

Results

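The 14 h library of a light-induction time course was set against its neighbours in time, the 6 h and 24 h libraries. A gene entered when 1 of these 3 libraries held it at a value of at least 5, which 2879 of 20294 genes did, and was then placed as higher at 14 h than at both neighbours, lower than both, or between them. The cells were E14, a mouse embryonic stem (ES) cell line, with a cassette in which the light-switched factor GAVPO drives Brn2 together with a red fluorescent protein (RFP). They were kept in 2i, a medium whose kinase inhibitors hold mouse ES cells in the naive state, and were lit by an LED of 300 µW for 0, 2, 4, 6, 14, 24 or 48 h. All 7 libraries carried the cassette and there was 1 library per time, so each time stands for 1 library. There is no replicate check on any difference below, and no p-value is given. The study followed expression after Brn2 was switched on, with neural differentiation as its subject. The 14 h library was singled out because its value of Brn2, listed as Pou3f2, was the highest of the 7.

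Brn2 belongs to the class III POU factors, which bind an octamer sequence and act in neural progenitors and neurons. Its paralogue Pou3f1 (Oct6) also marks pluripotent cells that have left the naive state. The FGF and ERK pathway, p53, the unfolded protein response of the endoplasmic reticulum (ER) and sterol synthesis each have their own target genes. Several of those targets are made and degraded quickly. The medium used here held kinase inhibitors, and the activity of the FGF and ERK pathway was not measured.

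Depth was 13.7, 9.10 and 9.95 M reads at 6, 14 and 24 h. The deposited values behave as reads per kilobase of genomic span, introns included, so the level of a gene with long introns is low. Where 3 values follow a gene they are its values at 6, 14 and 24 h, in that order. Every log2 ratio below is of the value plus 1, which understates differences of low genes. Intervals are exact 95% intervals of the ratio of recovered reads, without the added 1, and cover counting error only. In bulk RNA a gene carried by fewer cells and less RNA per cell cannot be told apart. The 6 ES cell markers summed to 1423, 1315 and 1101 at 6, 14 and 24 h, against 0.426 at 14 h for 7 fibroblast and feeder markers, of which Col1a1, Col3a1 and Lum were listed at 0. Most of the ES cell sums came from Dppa5a, at 870, 885 and 560, so they do not show the course of the other ES cell markers. The other marker sums at 14 h were 1.21 for endoderm, 1.12 for mesoderm, 0.279 for trophoblast and 14.2 for neurons, the last nearly all from Tubb3 at 11.7.

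Promoter sequences are shown for some genes of 2 groups described below, each picked because it holds the motif marked. They are genes of the ER that were higher at 14 h and the interferon-induced transmembrane genes Ifitm2 and Ifitm3 that were lower. Hyou1 and Pdia4, also genes of the ER, stood farther above both neighbours than the first 4 shown. They were not among the genes found with the ER stress element. The sequences are RefSeq promoters of build GRCm38.p6, 250 bases before to 50 after the annotated start, 5′ to 3′ on the gene's strand. Capitals in the first 4 mark the ER stress element, CCAAT and CCACG with 9 bases between them, on either strand, the sequence bound by factors of the unfolded protein response. Capitals in the last 2 mark a core of the interferon response element, GAAA and GAAA with 2 bases between them.
Hspa5, chr2:34771840-34772139, plus strand: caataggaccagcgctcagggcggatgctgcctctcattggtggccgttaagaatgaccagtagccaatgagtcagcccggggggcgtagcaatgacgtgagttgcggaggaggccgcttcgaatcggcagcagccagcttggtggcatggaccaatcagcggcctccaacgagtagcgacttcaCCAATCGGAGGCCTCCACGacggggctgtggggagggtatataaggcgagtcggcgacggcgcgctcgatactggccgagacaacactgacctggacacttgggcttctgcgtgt
Hsp90b1, chr10:86705395-86705694, minus strand: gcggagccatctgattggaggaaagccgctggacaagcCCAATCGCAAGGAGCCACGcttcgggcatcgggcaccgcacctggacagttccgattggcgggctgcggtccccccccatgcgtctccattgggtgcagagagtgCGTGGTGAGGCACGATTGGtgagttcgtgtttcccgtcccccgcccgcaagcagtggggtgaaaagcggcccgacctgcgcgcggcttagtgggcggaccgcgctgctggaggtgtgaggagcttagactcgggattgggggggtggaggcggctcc
Creld2, chr15:88819396-88819695, plus strand: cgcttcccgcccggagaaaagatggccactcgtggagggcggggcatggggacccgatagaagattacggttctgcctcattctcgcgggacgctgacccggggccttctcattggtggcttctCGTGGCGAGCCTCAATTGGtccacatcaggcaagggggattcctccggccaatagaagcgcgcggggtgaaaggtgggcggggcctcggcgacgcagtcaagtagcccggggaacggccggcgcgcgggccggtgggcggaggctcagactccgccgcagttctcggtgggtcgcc
Pdia6, chr12:17266339-17266638, plus strand: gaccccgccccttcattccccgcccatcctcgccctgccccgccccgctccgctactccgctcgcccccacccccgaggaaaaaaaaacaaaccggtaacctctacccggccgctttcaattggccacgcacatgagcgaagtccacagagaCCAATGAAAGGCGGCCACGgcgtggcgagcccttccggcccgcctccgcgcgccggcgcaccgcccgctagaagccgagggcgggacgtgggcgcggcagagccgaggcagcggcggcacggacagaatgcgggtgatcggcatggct
Ifitm2, chr7:140955912-140956211, minus strand: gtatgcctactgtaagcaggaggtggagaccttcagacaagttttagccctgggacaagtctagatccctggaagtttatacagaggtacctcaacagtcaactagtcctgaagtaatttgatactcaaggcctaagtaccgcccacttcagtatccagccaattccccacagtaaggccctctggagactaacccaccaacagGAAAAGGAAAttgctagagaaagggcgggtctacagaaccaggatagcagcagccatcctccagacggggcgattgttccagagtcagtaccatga
Ifitm3, chr7:141010695-141010994, minus strand: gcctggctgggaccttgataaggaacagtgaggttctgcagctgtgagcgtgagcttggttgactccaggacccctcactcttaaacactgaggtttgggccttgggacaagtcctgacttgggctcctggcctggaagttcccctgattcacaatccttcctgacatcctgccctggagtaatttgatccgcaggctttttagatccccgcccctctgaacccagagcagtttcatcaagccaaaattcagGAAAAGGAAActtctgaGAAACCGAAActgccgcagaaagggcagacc

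The ER stress element starts 65 bases before the start of Hspa5, 212 and 107 bases before that of Hsp90b1, 126 before that of Creld2 and 98 before that of Pdia6. The interferon core lies 46 bases before the start of Ifitm2, and 2 and 19 bases after that of Ifitm3. A match describes the letters only, and nothing was measured here on binding.

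Of the 2879 genes, 943 (32.8%) were higher at 14 h than in both neighbours by any amount and 885 (30.7%) were lower than both. Far fewer stood apart by much: 88 (3.06%) were at least 1.5-fold higher than both and 92 (3.2%) at least 1.5-fold lower, and at 2-fold the counts were 7 (0.243%) and 19 (0.66%). The minimum could be met by the 14 h library alone, as 146 genes did, which then had to be higher than both, and 421 genes were under 5 at 14 h. With a minimum mean of 5 over the 3 libraries instead, 801 of 2437 genes (32.9%) were higher than both and 760 (31.2%) lower, and 5 of the 7 and 14 of the 19 genes at 2-fold were kept. The median ratio over all 2879 genes was 0.01 to either neighbour on the log2 scale. The deviation, which is the log2 value at 14 h minus the mean of the log2 values at 6 h and 24 h, lay between -0.91 and 0.76 for 95% of genes. The same rule centred on other libraries, which share samples with this comparison, gave 96 genes (3.35%) at least 1.5-fold higher and 44 (1.54%) lower at 6 h, and 112 (3.82%) and 113 (3.85%) at 24 h. It gave 32 (1.18%) and 38 (1.4%) at 2 h, and 7 (0.253%) and 11 (0.398%) at 4 h.

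**Figure D1:**
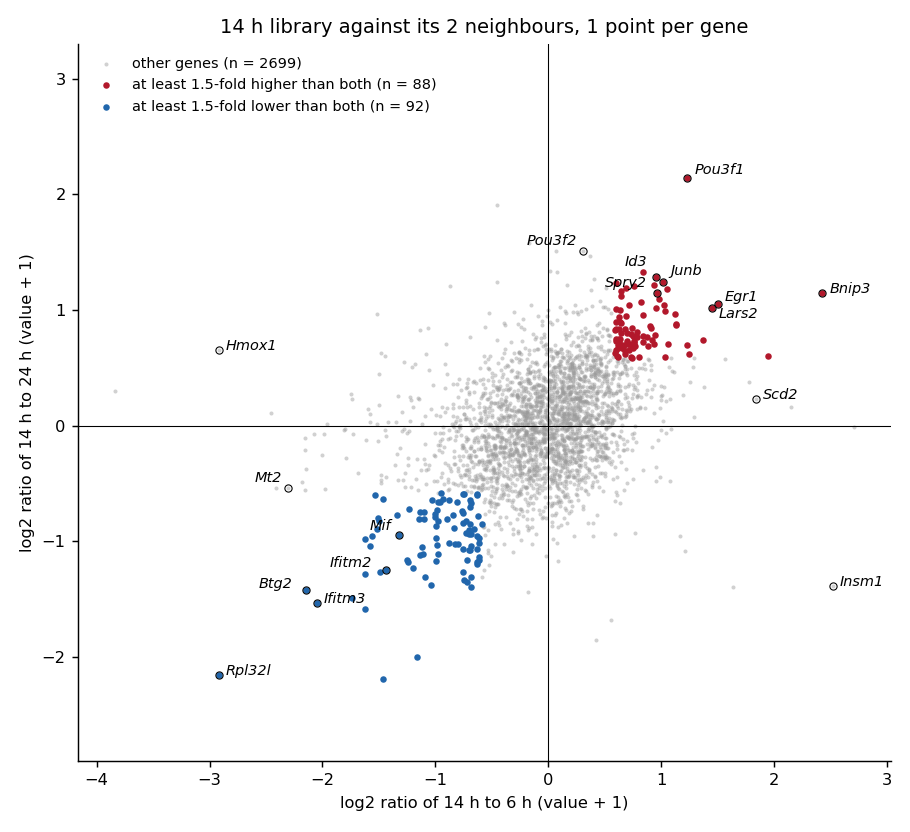
Each point is 1 of 2879 genes, with the log2 ratio of 14 h to 6 h on the x axis and of 14 h to 24 h on the y axis (both of value + 1); colours mark the 88 genes at least 1.5-fold above and the 92 genes at least 1.5-fold below both neighbours, and circled genes are named. Pou3f1 and Bnip3 stand out among the higher genes, Rpl32l, Btg2 and Ifitm3 among the lower ones, while Hmox1 and Insm1 lie between their neighbours.

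The POU factors come first because the 14 h library was chosen by one of them. Pou3f2 read 77.0, 36.9, 47.3, 96.2, 119, 41.3 and 7.19 at 0, 2, 4, 6, 14, 24 and 48 h, so that its value at 14 h was well above that at 24 h (log2 ratio 1.51) and only a little above that at 6 h (0.31). The sources used here do not say whether reads of the cassette are counted in it. Pou3f1, which the choice did not use, read 271, 117, 152, 189, 446, 100 and 18 in the same order. It stood 1.23 above 6 h (interval 1.20 to 1.28) and 2.14 above 24 h (interval 2.10 to 2.20) in log2, the largest ratio to the nearer neighbour among genes that reached 20. Pou3f4, another class III factor, was highest at 6 h: it read 80.2 at 6 h, 55.4 at 14 h and 27.7 at 24 h. These 3 were the only members kept of 11 POU genes in the table, and Pou3f3 was under the minimum with 0.644, 1.33 and 0.426 at 6, 14 and 24 h. The class III genes are paralogues with alike POU domains, and the sources used here do not say how reads that fit several places were counted.

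Over the 7 libraries the 6 genes whose log2 values followed Pou3f2 most closely, among 1813 genes that reached 10 in some library, were Pou3f1 (Pearson r = 0.97), Pou3f4 (0.97), Chmp2a (0.93), Pmpca (0.92), Ufc1 (0.92) and Rpl19 (0.86). The first 2 spanned a wide range, whereas Pmpca lay between 19.7 and 24.2 and Rpl19 between 326 and 423 in all 7 libraries. The points are 7 single libraries in order of time, so these are descriptions without a test.

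Single genes listed under FGF, ERK and growth factor signalling also stood above both neighbours. The cells were in a medium with kinase inhibitors, and whether ERK signalling lay behind the values of these genes was not tested. Spry2, a feedback inhibitor of receptor tyrosine kinase signalling, read 13.2, 9.70, 10.6, 12.6, 25.6, 11 and 13 from 0 to 48 h. The 14 h value lay above all the others, which kept within 9.70 and 13.2, and the log2 ratios were 0.96 to 6 h and 1.15 to 24 h, just under 2-fold on the nearer side. Egr1, an immediate early transcription factor downstream of ERK, was low everywhere and highest at 14 h, with 0.824, 2.42, 1.25, 1.62, 6.45, 2.60 and 1.52 in order of time. About 83, 220 and 97 reads lay behind its values at 6, 14 and 24 h, and the read ratios had intervals of 1.62 to 2.38 and 0.96 to 1.67 in log2. Junb, a subunit of the AP-1 factor, was at 7.03, 15.3 and 5.90 (log2 ratios 1.02 and 1.24), and it overlaps Prdx2, so reads of the pair cannot be told apart without strand. Egr1 met the minimum only through its 14 h value. Of the other 4 kept genes on the FGF and ERK feedback list, 2 (Spry2 and Dusp6) were higher than both neighbours (50%, against 32.9% of all genes by the mean). Fgf4, the ligand, was the 1 lower: 69.8, 49.8 and 59.9. Only 5 of the 19 genes on this list were kept. Those under the minimum went both ways, such as Etv4 at 4.71, 2.67 and 2.63 and Spry4 at 2.21, 4.49 and 3.36.

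Not all immediate early genes did the same. Of 14 kept, 6 were higher at 14 h than both neighbours (42.9%) and 4 were lower (28.6%), close to the 32.8% and 30.7% of all genes, and the list's median deviation was 0.06 in log2. Jund was highest at 14 h at 48.0 against 35.8 and 30.9, and Ier3 at 11.2 against 8.90 and 6.12. Dusp1, a phosphatase of MAP kinases, was at 13.6, 5.15 and 5.44, and Ccn1, a secreted matrix protein, at 8.82, 3.17 and 3.3, so both were far under 6 h and level with 24 h. Btg2, an antiproliferative gene that is also a p53 target, had the lowest value of the list relative to its neighbours and is described with the p53 genes.

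Single regulators elsewhere shared the peak. Id3, an inhibitor of basic helix-loop-helix factors that BMP and serum signals induce, read 9.46, 27.9, 18.1, 17.8, 35.4, 13.9 and 38.8 from 0 to 48 h. It stood above both neighbours (log2 ratios 0.96 and 1.28) but not above 48 h, and its relatives did not share the shape: Id1 was at 3.73, 3.77 and 5.92 and Id2 at 3.19, 4.65 and 8.67. Socs3, the feedback inhibitor of LIF and Stat3 signalling, was at 32.7, 51.2 and 25.2 (log2 ratios 0.63 and 1.0). Cdkn1b (p27), an inhibitor of G1 cyclin-dependent kinases, was at 6.93, 13.2 and 6.31 and was highest at 14 h of the 7 libraries. Cdkn2d (p19), another such inhibitor, was highest there too, at 3.35, 6.36 and 3.44. It met the minimum only through 14 h, so it had to be higher than both neighbours. Cdkn1a (p21), in contrast, was lowest at 14 h, at 9.35, 5.14 and 6.78.

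**Figure D2:**
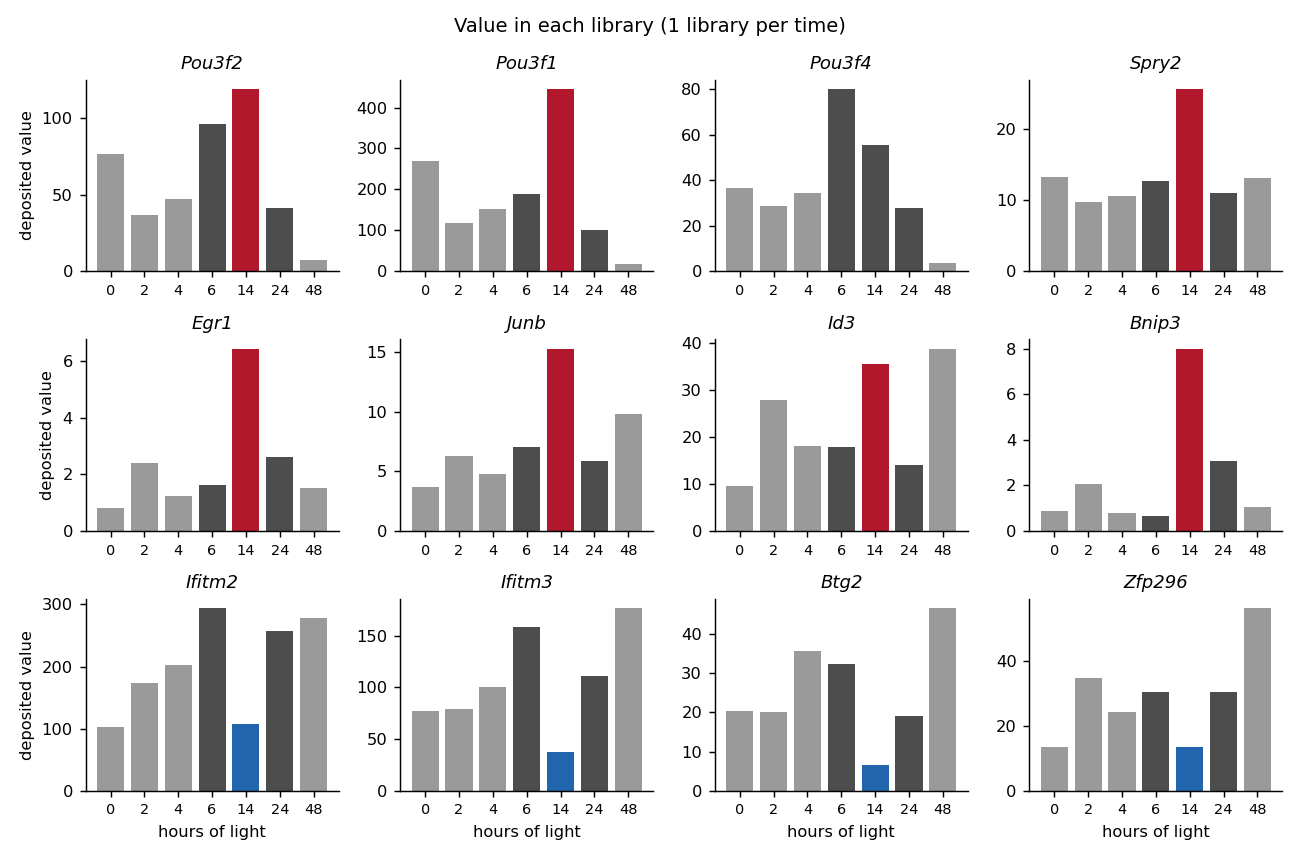
Bars give the deposited value (reads per kilobase of genomic span, scaled to library size) of 12 genes in the 7 libraries by hours of light, 1 library per bar; dark bars are the 6 h and 24 h libraries, and the 14 h bar is red where it exceeds both, blue where it is under both. Spry2 stood at 25.6 at 14 h and between 9.70 and 13.2 elsewhere, and Ifitm3 at 37.4 at 14 h and between 77.0 and 176 elsewhere.

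The other genes at least 2-fold above both neighbours were of mixed function. Bnip3, a mitochondrial protein that hypoxia induces and that promotes mitophagy, read 0.853, 2.07, 0.791, 0.669, 8.0, 3.06 and 1.07 from 0 to 48 h. From about 171 reads at 6 h, 1360 at 14 h and 568 at 24 h, its read ratios had intervals of 3.35 to 3.82 and 1.25 to 1.53 in log2, the largest excess over 6 h among these 7 genes. Amt, the aminomethyltransferase of glycine cleavage, was at 9.35, 20.46 and 8.47, just past 2-fold on the nearer side (log2 ratio 1.05). Snx17, an endosomal sorting nexin, was at 7.96, 17.3 and 7.90 and overlaps Eif2b4 and Zfp513. Lars2, the mitochondrial leucyl-tRNA synthetase, was at 4.70, 14.6 and 6.71. In all 7 of these genes 14 h was the highest of the 7 libraries.

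Bnip3 did not stand for the whole of its group. Of 15 kept genes of glycolysis and hypoxia, Bnip3, Pdk1 and Aldoc met the minimum only through 14 h. Of the other 12, 5 were higher than both neighbours (41.7%, against 32.9% of all genes by the mean) and 2 lower, with a median deviation of 0.12 against -0.01. Pdk1, a kinase that restrains pyruvate oxidation, was at 2.40, 6.26 and 4.24, and Aldoc, a glycolytic aldolase, at 2.94, 5.40 and 2.67. Slc2a3, a glucose transporter, was between its neighbours at 52.8, 44.1 and 28.1, and Gapdh was as well at 1118, 852 and 810.

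Genes of sterol and fatty acid synthesis were higher at 14 h as a group. Of 21 kept, 16 were higher than both neighbours (76.2%, against 32.8% of all genes), 2 were lower and 3 between, and the median deviation was 0.55 in log2. The excess was larger over 6 h (median 0.76) than over 24 h (median 0.28). Scd2, a stearoyl-CoA desaturase, read 56.1, 102, 61.0, 60.2, 218, 186 and 176 from 0 to 48 h, and so remained high after 14 h. Fasn, the fatty acid synthase, was at 18, 43.6 and 26.6, and Insig1, which retains the sterol sensor in the ER, at 20.3, 49.8 and 38.2. Lss, a sterol cyclase, was at 1.94, 5.99 and 3.56, and Acat2, which makes acetoacetyl-CoA, at 5.12, 12 and 7.70. The transcription factors of the pathway were above both neighbours too, Srebf1 at 7.37, 11.7 and 6.70 and Srebf2 at 4.86, 8.26 and 5.25. With a minimum mean of 5, which leaves out Lss, 15 of 19 genes were higher than both (78.9%, against 32.9% of all genes). Tmem97 and Ebp, both sterol-binding proteins of the ER, were the 2 lower genes, and Tmem97 was at 15.3, 13.2 and 19.7.

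Most genes of the Atf4 and ER stress list were higher at 14 h. Of 22 kept, 15 were higher than both neighbours (68.2%, against 32.8% of all genes), none was lower (30.7% of all genes) and 7 were between, with a median deviation of 0.46. With a minimum mean of 5 the count was 14 of 20 (70%). The ER chaperones and folding enzymes were among the 15. Hspa5 (BiP), the main ER chaperone, read 71.2, 50.9, 39.4, 36.8, 80.6, 58.4 and 42.8 from 0 to 48 h, highest at 14 h with 0 h next. Hyou1, a chaperone of the same family, was at 7.73, 15.9 and 8.83, the only member at least 1.5-fold above both. Pdia4, a protein disulphide isomerase, was at 10.3, 20.3 and 13.8, and Calr, a chaperone of glycoproteins, at 108, 174 and 119. Hsp90b1 was at 23.3, 58.6 and 55.5, so that it was far above 6 h and almost level with 24 h (log2 ratio 0.08).

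Transcription factors of the list differed. Xbp1, a factor of the unfolded protein response, was at 7.67, 13 and 9.18, highest of the 7 libraries at 14 h. Ddit3 (Chop), a proapoptotic factor, read 14.6, 6.57, 11.9, 14.4, 1.80, 1.59 and 1.78, low in the last 3 libraries alike. Atf4 itself was at 173, 128 and 114 and Trib3, its target, at 11.5, 5.69 and 3.10, both between their neighbours. Of the genes for one-carbon and amino acid metabolism, Psat1 was at 7.08, 12.1 and 8.73, highest at 14 h of the 7 libraries. Mthfd2 was at 4.66, 7.72 and 4.88, with 0 h level with 14 h at 7.67. It met the minimum only through 14 h, so it had to be higher than both neighbours. Asns was nearly flat at 27.5, 31.5 and 28.4.

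The ER stress element was present in 5 of the 20 promoters that matched this list (25%: Hspa5, Hsp90b1, Creld2, Pdia6 and Calr), against 0.383% of 2352 promoters of kept genes and 0.137% of all 27025 in the table. The list collects genes of the ER stress response, so its share of the element is no result about 14 h. All 5 genes were higher at 14 h than both neighbours, Creld2 by little (5.87, 6.79 and 5.77). They are part of 9 kept genes with the element, and the others, Canx, Hnrnpa3, Syvn1 and Zfp57, are not described here. No promoter among the 69 matched for the 88 genes at least 1.5-fold higher held the element. The Atf4 site TGATGNAA was in 4 of the 20 (Asns, Chac1, Trib3 and Herpud1), and in 5 of the 69 (7.25%: Aars, Ctdsp1, Rhot2, Scaf1 and Yars) against 2.72% of kept genes and 4.51% of all. The POU octamer ATGCAAAT was in 1 of the 69 (H2ac12) and in 1 of the 72 matched for the lower genes (Zfp296), shares of 1.45% and 1.39% beside 1.28% and 1.97%. Both strands were read for each motif, and the window of 300 bases leaves enhancers out.

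Targets of p53 were lower at 14 h, mostly in comparison with 6 h. Of 19 kept, 10 were lower than both neighbours (52.6%, against 30.7% of all genes), 1 was higher and 8 were between. The median log2 ratio was -0.85 to 6 h and -0.18 to 24 h, and the median deviation -0.46. Btg2 read 20.4, 20.1, 35.7, 32.4, 6.53, 19.2 and 46.6 from 0 to 48 h, lowest by a wide gap at 14 h. About 1749, 235 and 754 reads lay behind its 3 values, with intervals of -2.51 to -2.11 to 6 h and -1.77 to -1.34 to 24 h in log2. Ccng1, cyclin G1, read 142, 59.6, 131, 75.6, 37.7, 78.1 and 39.8, so that 48 h was as low as 14 h, and its log2 ratio of -0.99 to the nearer neighbour fell just short of 2-fold.

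Other members showed the 2 shapes on the list. Trp53inp1, a proapoptotic stress gene, was lower than both at 14.8, 5.23 and 9.63, and Ddit4, an inhibitor of mTOR complex 1, was at 43.6, 12.8 and 17.5. Plk2, a polo-like kinase, was at 24.9, 5.45 and 6.70, and Mdm2, the ligase that degrades p53, at 11, 5.66 and 5.58, so in both the low value was shared with 24 h. Bax, a proapoptotic pore protein, was the 1 member above both at 52.0, 67.8 and 43.2, and the transcript of Trp53 was at 28.3, 20.3 and 23.2.

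Antioxidant genes under Nrf2, metallothioneins included, gave the lowest median deviation of the 25 lists with at least 3 kept genes, -0.72 in log2. Of 16 kept, 10 were lower than both neighbours (62.5%, against 30.7% of all genes), 1 was higher and 5 were between, and the median ratio was -0.99 to 6 h against -0.26 to 24 h. Mt2, a metallothionein that binds zinc and copper, read 1017, 993, 1434, 2768, 560, 814 and 861 from 0 to 48 h, with its highest and lowest values in adjacent libraries. Mt1 was at 1132, 327 and 398, and Fth1, the ferritin heavy chain, at 335, 121 and 189. Hmox1, haem oxygenase, was at 150, 18.9 and 11.7 and therefore between its neighbours, and the 4 h value of 139 was close to that of 6 h. Sqstm1, the autophagy receptor p62, went the other way against 24 h, at 38.3, 27.7 and 11.1.

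**Figure D3:**
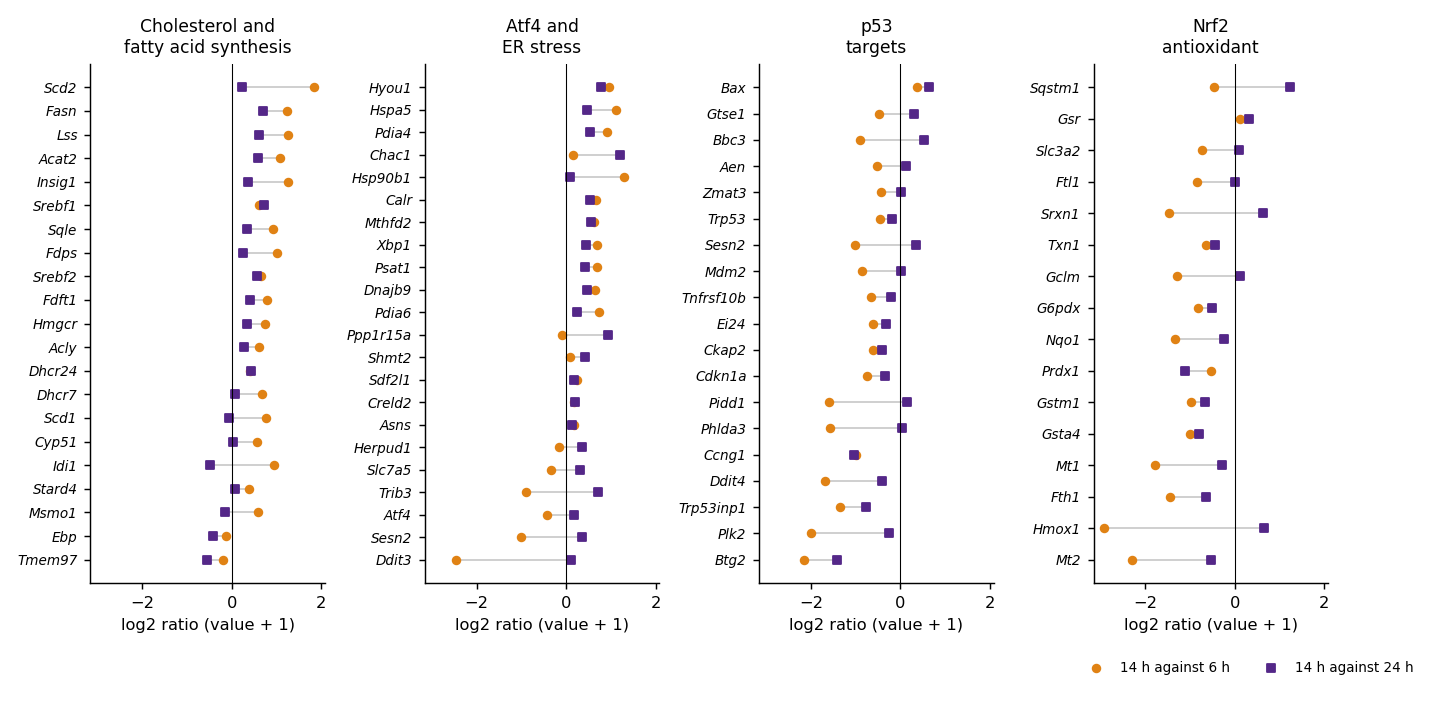
For each kept gene of 4 lists, the orange circle gives the log2 ratio of 14 h to 6 h and the purple square that of 14 h to 24 h (value + 1). In the sterol list 16 of 21 genes and in the Atf4 and ER stress list 15 of 22 have both marks above 0, in the p53 and Nrf2 lists 10 of 19 and 10 of 16 have both below 0, and the circles lie farther out than the squares for most p53 and Nrf2 genes.

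Naive pluripotency genes were lower at 14 h than in both neighbours in 9 of 16 cases (56.2%, against 30.7% of all genes), with 2 higher and a median deviation of -0.30. With GC and length trends removed 5 of 14 were lower (35.7%, against 31.6% of all genes). Klf2, a Krüppel-like factor of the naive network, read 61.0, 151, 85.7, 72.4, 49.8, 106 and 137 from 0 to 48 h, lowest at 14 h. Klf5, a related factor, was at 29.9, 12.8 and 15.9, Nanog at 56.4, 33.4 and 48.5, and Tfcp2l1, another naive factor, at 12.6, 7.39 and 9.89, each lowest of 7 at 14 h. Zfp296, a zinc finger protein of ES cells, read 13.5, 34.6, 24.2, 30.4, 13.3, 30.2 and 56.1, more than 2-fold under both neighbours and level with 0 h, and overlaps Gemin7.

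The core factors differed less. Of 12 core pluripotency genes kept, 2 were higher than both neighbours (16.7%) and 4 were lower (33.3%), against 32.8% and 30.7% of all genes. Sox2 was nearly flat at 77.5, 69.9 and 71.5, Pou5f1 (Oct4) was at 204, 176 and 219, and Utf1, a chromatin protein of ES cells, at 168, 111 and 163. Trim28, a corepressor of retroelements, was highest at 14 h, at 170, 271 and 166. Of 9 kept genes of the formative and primed state only Zic2 lay above both, at 9.89, 16.1 and 11.5, and Otx2 stood between at 1.82, 4.33 and 5.06.

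Most neural genes kept did not peak at 14 h. Each of the 3 kept neural progenitor genes and each of the 3 proneural and neuronal genes lay between its neighbours. Insm1, a zinc finger factor of differentiating neurons, was at 0.145, 5.6 and 16.3, and Neurod1, a proneural factor, at 6.49, 22.4 and 60.7, both ascending. Tubb3, the other proneural and neuronal gene kept, descended, at 13.5, 11.7 and 10.3. Of the neural progenitor genes, Sox3 was at 2.90, 5.32 and 7.93 and Sox21 at 24.8, 29.1 and 33.3. Vim was level at 6 and 14 h, at 36.5, 36.8 and 53.2. Hes6, which antagonises the Notch effector Hes1, was at 9.79, 46.9 and 41.9, above both but hardly above 24 h (log2 ratio 0.16).

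Among the 19 genes at least 2-fold lower, the interferon-induced transmembrane genes were the most abundant. Ifitm2, a membrane protein that restricts virus entry, read 103, 174, 202, 294, 108, 256 and 278 from 0 to 48 h, with log2 ratios of -1.44 to 6 h and -1.25 to 24 h. Ifitm3, close to it on chromosome 7, read 77.0, 79.1, 99.9, 158, 37.4, 111 and 176, with ratios of -2.05 and -1.54. Ifitm2 was about as low at 0 h as at 14 h, whereas Ifitm3 was at 77.0 at 0 h against 37.4 at 14 h. Only for Ifitm3 was 14 h the lowest of the 7. Ifitm1 was also among the 92 genes at least 1.5-fold lower. The interferon core sequence shown above is no mark of the group: it was in 2 of 72 promoters of the lower genes (2.78%), in 3.1% of kept genes and in 3.99% of all.

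The rest of the 19 held surface proteins, redox genes and copies of abundant genes. Cd24a, a surface glycoprotein, was at 9.72, 3.79 and 18.2, and Ly6e, a GPI-anchored protein of the Ly6 family, at 5.46, 2.04 and 6.54. Gpx2, a glutathione peroxidase, was at 5.63, 1.40 and 9.99, from about 41 reads at 14 h, and H2aj, a histone H2A variant, was at 17.2, 5.11 and 11.6. Rpl32l was the lowest relative to its neighbours at 126, 15.8 and 73.9. Rpl32l and Hnrnpa1l2-ps2 (8.03, 2.83 and 7.68) are named as copies of expressed genes, so how reads were shared with the parent gene is uncertain.

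Several of the 19 are genes best known outside ES cells. They include Cxcr2, a chemokine receptor of neutrophils (17.2, 7.41 and 16.4), Ptcra, of the pre-T-cell receptor (6.37, 1.39 and 4.84), Omd, a bone matrix protein that lies within Cenpp (13.1, 5.15 and 13.4), and Efcc1 (5.50, 1.11 and 5.35). Rasl2-9 rests on about 17 reads at 14 h. The remaining members were Gm12657, Cox7a1, Pbld1 and Teddm1b, the last just past 2-fold at 28.2, 13.2 and 35.9. Of the 19 genes, 17 were lowest of the 7 libraries at 14 h and 5 overlap another coding gene.

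The 88 and 92 genes at least 1.5-fold apart were also placed among all 7 libraries. In 72 of the 88 higher genes (81.8%) 14 h was the highest of all 7 libraries, against 16.9% of kept genes, and in 65 of the 92 lower genes (70.7%) it was the lowest, against 11.5%. These shares are raised by the choice itself, since 2 of the 6 other libraries were used. The 0 h library, which it did not use, was under the 4 h library in 78 of the 92 lower genes (84.8%), in 23 of the 88 higher genes (26.1%) and in 52.2% of all kept genes. Measured against 2 h the shares were 70.7%, 61.4% and 57%.

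Transcript length and GC content moved with the pattern. The lower genes had a median transcript of 1125 bases, the higher genes of 2640 and all kept genes of 2081, and 35 of the 83 lower genes of known length (42.2%) were under 1000 bases, against 15.2% of kept genes. Median GC content was 50.4% in the lower, 56.3% in the higher and 52.3% in all kept genes. Over 10 bins of length, the median deviation went from -0.23 in the shortest transcripts to 0.15 in the longest, and 9.93% of the shortest but 0.709% of the longest were at least 1.5-fold lower. Over 10 bins of GC content, the ratio to 24 h went from -0.37 to 0.38 and that to 6 h from 0.17 to -0.06. With both trends removed by a spline fit, 48 of the 88 and 43 of the 83 still differed by 1.5-fold, and all of them, 88 and 83, kept their direction. The part of length and GC content in the single differences was not tested.

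**Figure D4:**
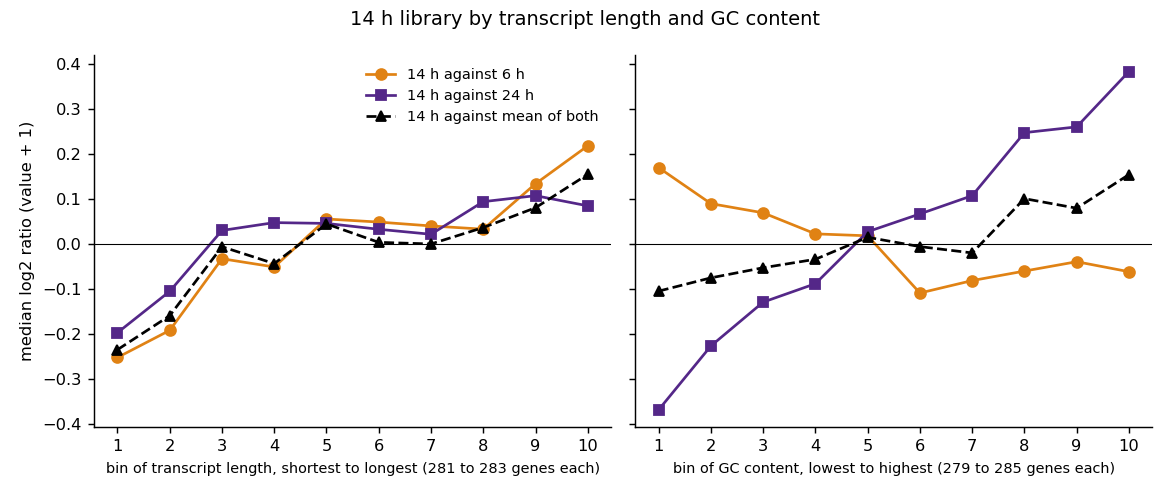
Median log2 ratio of 14 h to 6 h (orange circles), to 24 h (purple squares) and to the mean of both (black triangles), over 10 bins of transcript length (left) and of GC content (right), with about 280 genes per bin. The deviation climbs from -0.23 to 0.15 with length, and the ratio to 24 h from -0.37 to 0.38 with GC content, while the ratio to 6 h slopes the other way with GC content.

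The 2 largest lists, both of short transcripts, had lower values at 14 h that were not seen once the trends were removed. Of 79 cytoplasmic ribosomal protein genes, with a median transcript of 799 bases, 47 were lower at 14 h than both neighbours (59.5%, against 30.7% of all genes). In the same list 11 were higher, and the median deviation was -0.20. With both trends removed the counts were 29 and 29 and the median was 0.01. Of 66 oxidative phosphorylation genes 34 were lower (51.5%) and 18 higher, with a median of -0.16 that became -0.01. Rps29, of the small ribosomal subunit, was at 914, 413 and 725, and Rps21, another, at 503, 235 and 394; Cox7b, of cytochrome oxidase, was at 36.1, 23 and 53.2.

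The lists described above with larger medians kept their sign. After both trends were removed, 37.9% of all genes were higher than both neighbours and 31.6% were lower. The shares higher were 76.2% for sterol and fatty acid synthesis and 66.7% for Atf4 and ER stress. The shares lower were 84.2% for p53 targets, 62.5% for Nrf2 genes and 35.7% for naive pluripotency. With both trends removed the median deviation was 0.37 for sterol and fatty acid synthesis (16 of 21 higher than both, 15 of them as before), 0.35 for Atf4 and ER stress (14 of 21 with a length), -0.50 for p53 targets (16 of 19 lower than both, against 10 before), -0.66 for Nrf2 genes (10 of 16, 9 of them as before) and -0.30 for naive pluripotency (5 of 14), beside 0.02 for all genes. Of the lists with 3 kept genes, the median of the BMP and Id genes went from -0.17 to 0.08 and that of the neural progenitor genes from 0.02 to -0.28. Among single genes the ratio of Spry2 to its nearer neighbour stayed at 0.93, that of Pou3f1 at 1.11 and that of Btg2 at -1.42. For Fasn it became 0.16 (from 0.69) and for Samd1 0.00 (from 0.71).

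**Figure D5:**
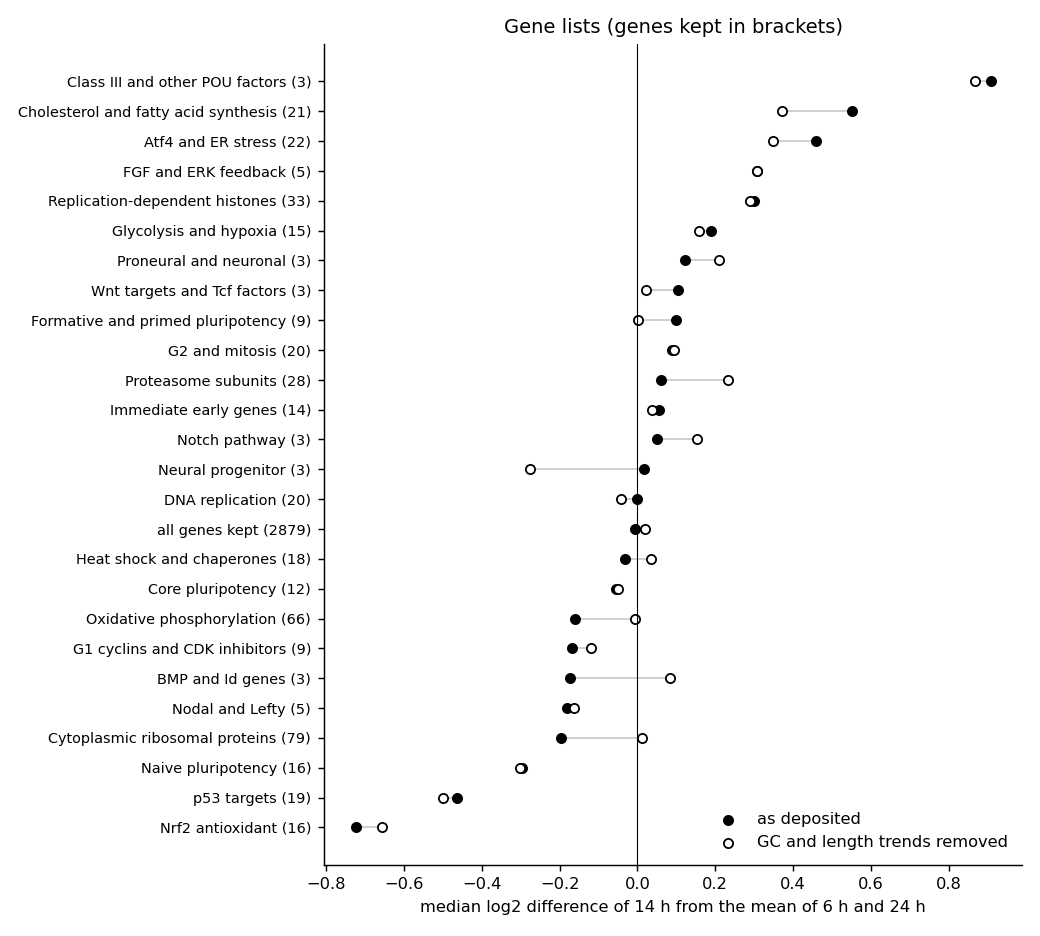
For each list with at least 3 kept genes, the filled circle is the median log2 deviation of 14 h from the mean of 6 h and 24 h, and the open circle the same after GC and length trends were removed; the number of kept genes is in brackets. Ribosomal protein and oxidative phosphorylation genes move from -0.20 and -0.16 to about 0, whereas Nrf2 and p53 genes stay at -0.66 and -0.50. Both points of the POU list are those of Pou3f2, by which the 14 h library was chosen.

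Genes of the cell cycle and of protein turnover were mixed. Of 20 genes of DNA replication 10 were higher (50%) and 6 lower (30%) than both neighbours, against 32.8% and 30.7% of all genes. The median deviation was 0.00, and 1 gene, Pold1, met the minimum only through 14 h. Of 20 genes of G2 and mitosis 8 were higher (40%) and 5 lower (25%). Top2a, a topoisomerase, was at 11.7, 25.6 and 17.8, and Mki67, a proliferation marker, at 8.33, 15.2 and 11.5, both highest of the 7 at 14 h. Pcna, the replication clamp, was at 80.4, 73.0 and 121, and Ube2c, of the anaphase-promoting complex pathway, at 163, 120 and 219. Of 28 proteasome subunits 12 were higher (42.9%) and 7 lower (25%), with a median deviation of 0.06. With both trends removed 17 were higher (60.7%, against 37.9% of all genes) and 5 lower (17.9%, against 31.6%), and the median was 0.23. Psmd2 at 11.7, 22.9 and 12.3 and Psmb4 at 77.5, 132 and 82.5 were the farthest above both. Heat shock genes were 5 higher (27.8%) and 4 lower (22.2%) of 18, and Hsp90aa1, a cytosolic chaperone, was at 643, 484 and 639.

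Replication-dependent histone genes, whose messages lack the usual poly(A) tail, had a median deviation of 0.30. They were higher than both neighbours in 14 of 33 cases (42.4%, against 32.8% of all genes) and lower in 5 (15.2%, against 30.7%). The median log2 ratio was 0.44 to 24 h and -0.05 to 6 h. H3c4 was at 7.84, 11.5 and 5.14 and H4c11 at 3.76, 5.30 and 1.61, the latter from about 40, 37 and 12 reads. H4c11 and 2 other kept members met the minimum only through 14 h. With a minimum mean of 5, 11 of 21 were higher (52.4%, against 32.9% of all genes) and 3 lower (14.3%, against 31.2%). The sign of the median turned when 48 h stood in for 24 h.

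Among the other genes that reached 20 and stood most above both neighbours were Eif6, which keeps ribosomal subunits apart (13.1, 26.1 and 10.6), Trir (23.3, 52.1 and 27.9), Coro1b, an actin regulator (16.4, 31.8 and 18.6), Chd4, the remodeller of the NuRD complex (7.94, 22.2 and 12.9), Pgp (21.3, 38.8 and 23.1) and Rnf5, a ubiquitin ligase of the ER (19.4, 32.6 and 19.6). At the other end were Mif, a cytokine abundant in ES cells (1144, 458 and 884), Snrpd2, of the spliceosome (97.2, 48.3 and 96.0), Tmem258 (28.1, 13.7 and 32.1), Cd164, a sialomucin (33.9, 18 and 37.5), Rps15a (54.4, 26.8 and 49.8), Tomm6, of the mitochondrial import pore (153, 85.2 and 159) and Nme2, a nucleoside diphosphate kinase (37.2, 18.4 and 33.4). Amt and Pou3f1 lay inside the 2-fold threshold and Spry2 and Id3 just outside it on the higher side. On the lower side Teddm1b and Zfp296 lay just inside, and Tmem258 and Ccng1 just outside.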

How the data were processed

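Messenger RNA was measured in 7 libraries with 1 per time. The labels' protocols name the RNeasy kit for extraction and the Lexogen SENSE kit for libraries, and the submitters' processing notes name Bowtie2 and the build mm9. The counting of reads, the use of strand and the aligner's version are not given in the sources used.

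The deposited table holds a signal for each RefSeq transcript in each library under headers without a unit. Multiplied by genomic span and a library factor, 80.0% to 81.2% of values of 2 to 20 reads came within 0.1 of a whole read, against 21.9% to 23.0% with transcript length and 20% by chance. Reads are approximate because spans came from GRCm38. The design had foreseen a named unit, and values were described on the log2 scale.

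Of 30673 rows, 3320 start-site rows at 0, 695 further placements and 413 transcripts without a symbol were left out. Where a gene had more rows (3668 of 20294 genes), that with the highest mean stood for it. Of the 2879 kept genes 806 overlap another coding gene, and 2820 (98.0%) had a length and GC content.

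The members and the 33 gene lists were chosen with earlier results of these data known. With 1 library per time there was no test. Log2 ratios used a pseudocount of 1, intervals were Clopper-Pearson, and trends were cubic splines with 5 degrees of freedom. Named genes were Pou3f2, the 15 farthest above and the 15 farthest below both neighbours with a value of at least 20, up to 4 genes per list, the 6 most like Pou3f2 and those beside the 2-fold threshold. Others were chosen after their values were seen. Of the genes this rule names, 1 is not reported here. The calculation was tested on simulated data. Python 3.11.15, pandas 2.3.3 and scipy 1.17.1 were used. Alternatives were other folds, pseudocounts, minimum values, scalings, rows, neighbours and GC content, and, chosen after seeing the data, transcript length, both trends together and a minimum mean.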

Additional observations from a re-analysis of the deposited data

How the results depend on the processing

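No paired analysis was possible because each time has 1 library, and none could be left out for the same reason; replacing a neighbour was done instead. At 1.5-fold 88 genes were higher and 92 lower at 14 h, and at 3-fold 0 and 2. With 4 h in place of 6 h, 25 genes were at least 2-fold higher. With 48 h in place of 24 h the counts were 17 and 38. The median deviation of the Notch genes was then -0.81 and that of the histone genes turned to -0.0222. The median of the 3 kept POU genes was 2.09. It is the value of Pou3f2, by which the 14 h library was chosen, and so is no result about the family. Against a line through 6 h and 24 h the 2-fold counts were 19 and 41. A minimum value of 20 left 2 and 6 genes at 2-fold, and 241 higher and 327 lower by any amount. Without a minimum 5575 were higher and 4438 lower by any amount, the median of the POU genes was 0.0745 and that of the FGF and ERK feedback genes turned to -0.0681. With a pseudocount of 0.5, 11 genes were at least 2-fold higher, and with 5 the counts were 1 and 4. The cause was not tested.

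Other scalings, the sum of a gene's rows and the removal of GC or length trends left the 2-fold counts within 1.5 times, but not the same genes: with both trends removed 3 of the 7 higher and 12 of the 19 lower genes were shared, and with quantile normalization 4 of the 7 and all 19. With 4 h for 6 h, all 7 and 8 of the 19 were shared, and with 48 h for 24 h, 4 of the 7, 10 of the 19 and 28 of the 88. Over 119 named genes, 20 of 1477 values moved by more than 1.5-fold and none reversed. Genes with few reads at 14 h, such as Rasl2-9 with 17, are limited by depth.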

Other observations

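Cytosolic aminoacyl-tRNA synthetases, which charge tRNAs with amino acids, were looked up after Aars, Nars, Vars and Yars were seen among the genes at least 1.5-fold higher at 14 h. Those 4 are therefore no evidence on the family, and with them 13 of 15 kept genes were higher than both neighbours, where 32.8% of all genes were. Kars was lower (8.30, 8.23 and 8.42 at 6, 14 and 24 h) and Rars was between (4.72, 6.81 and 7.14). The values of Aars were 17.4, 27.0 and 10.9, those of Yars 4.69, 9.53 and 5.55, and those of Nars 7.26, 11.5 and 6.96. Eprs and Hars met the minimum only through 14 h, so they had to be higher than both. By a minimum mean of 5, which still includes the 4 genes seen first, 11 of 13 were higher (84.6%, against 32.9% of all genes). The median deviation was 0.42 on the log2 scale, and 0.39 with GC and length trends removed. After that removal 14 of the 15 were higher than both, against 37.9% of all genes, but none by 1.5-fold. The 15 again include the 4 genes seen first, and Eprs and Hars, so this share is raised by the choice as well.

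Some genes on the marker lists of other cell types also stood apart. Twist1, a mesenchymal transcription factor on the fibroblast list, was at 1.35, 8.08 and 4.98 at 6, 14 and 24 h, from about 40, 159 and 107 reads, while the collagen genes Col1a1 and Col3a1 were listed at 0 at 14 h. Sparc, a matrix protein on the endoderm list, was at 15.7, 4.91 and 9.49. Tex19.1, a germline gene that naive ES cells also express, was between its neighbours at 118, 85.4 and 22.1.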
